A study of Mus musculus with 8 samples.

Results

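The genes examined were 10 core genes of macrophages and of the CSF1 axis: the receptor gene Csf1r, the ligand genes Csf1 and Il34, and the macrophage genes Adgre1, Cd68, Lyz2, Mpeg1, Cd14, Laptm5 and Aif1. They were chosen by name, and each was read at the assembled locus that carried the name with the most counts. All 10 were present among 48607 loci, and 9 passed the filter of at least 1 FPKM in at least 3 libraries that 20506 loci passed. FPKM is the level of a locus corrected for the length of its transcript and for library depth. The data were RNA-seq of the whole aorta of mice that all lacked ApoE and all ate a Western diet for 12 weeks, in 5 libraries titled ApoE-/- and 3 titled NPRC-/-ApoE-/-. ApoE-/- mice clear lipoprotein remnants poorly and develop atherosclerosis. NPRC-/-ApoE-/- mice also carried a germline CRISPR frameshift in Npr3, the gene of natriuretic peptide receptor C, in every cell type, and came from a cross of both knockouts. The age of the mice whose aortas were sequenced is not given in the sources used here. The series description counts 5 and 3 mice, so each library was taken as 1 animal.

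The titles and the genotype entries of the libraries conflict. Libraries ApoE-/- 4 and 5 were entered as NPRC-/-ApoE-/-, and libraries NPRC-/-ApoE-/- 1 and 2 were entered as ApoE-/-, so that 4 of 8 libraries had agreeing labels. Groups are therefore given as titled, and every test was repeated by genotype entry. Npr3 overlapped between the titled groups, from 0.62 to 1.69 FPKM where titled ApoE-/- and from 1.13 to 1.39 FPKM where titled NPRC-/-ApoE-/-. By genotype entry it also overlapped, from 0.62 to 1.69 FPKM in ApoE-/- and from 1.01 to 1.67 FPKM in NPRC-/-ApoE-/-. Its log2 fold change was 0.10 (SE 0.28) by title and 0.16 (SE 0.28) by genotype entry. The Npr3 level therefore did not tell which labels are right. Whether the frameshift altered the RNA level was not tested. Total counts were between 62969165 and 86693276 per library. The first principal component held 36.7% of the variance and placed ApoE-/- 2, 3 and 4 between 50.1 and 65.4, ApoE-/- 1, ApoE-/- 5 and NPRC-/-ApoE-/- 1 between -36.2 and 10.5, and NPRC-/-ApoE-/- 2 and 3 at -69.3 and -62.7. The 10 smooth muscle markers, which mark the main cell of the aortic wall, summed to between 1354 and 2996 FPKM, and none was at 0 in all libraries.

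CSF1R is a receptor tyrosine kinase on monocytes and macrophages. Its ligands CSF1 and IL-34 bind to overlapping parts of the receptor and drive survival, proliferation and differentiation of these cells, and the phosphorylated receptor passes its signal through SRC family kinases, PI3K, GRB2 and SOS, and the adaptor DAP12. In the atherosclerotic aorta, macrophages descend from resident cells and from recruited monocytes, take up modified lipoprotein and become foam cells. Smooth muscle, endothelial cells and fibroblasts are textbook sources of CSF1 in the wall. In whole tissue, fewer macrophages and less RNA per macrophage cannot be told apart.

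The receptor and the macrophage genes moved up and down together between libraries, and the ligands did not follow them. Levels were compared between genes as FPKM. Lyz2, which encodes the lysozyme of macrophages, had the highest mean level of the 10 genes at 798 ± 490 FPKM (SD over 8 libraries), followed by Mpeg1, which encodes the pore-forming perforin-2 of phagocytes, at 95.6 ± 46.2 FPKM. Laptm5, a lysosomal membrane protein of blood cells, averaged 31.8 ± 12.8 FPKM and Csf1r 25.2 ± 9.93 FPKM. Adgre1, which encodes the surface antigen F4/80, averaged 22.5 ± 12.3 FPKM, the locus that holds Cd68 18.1 ± 4.30 FPKM, and Cd14, the lipopolysaccharide co-receptor, 11.2 ± 7.72 FPKM. Csf1 averaged 4.12 ± 0.638 FPKM, Aif1, which encodes the actin-binding protein IBA1, 1.15 ± 0.727 FPKM, and Il34 0.678 ± 0.108 FPKM. The order from Lyz2 through Mpeg1 and Laptm5 to Csf1r held in 8 of 8 libraries at each step, although Laptm5 exceeded Csf1r by only 0.33 ± 0.19 on the log2 scale. Neighbours that did not keep their order were Csf1r above Adgre1 (6 of 8 libraries), Adgre1 above Cd68 (4 of 8), Cd14 above Csf1 (6 of 8) and Aif1 above Il34 (5 of 8).

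**Figure D1:**
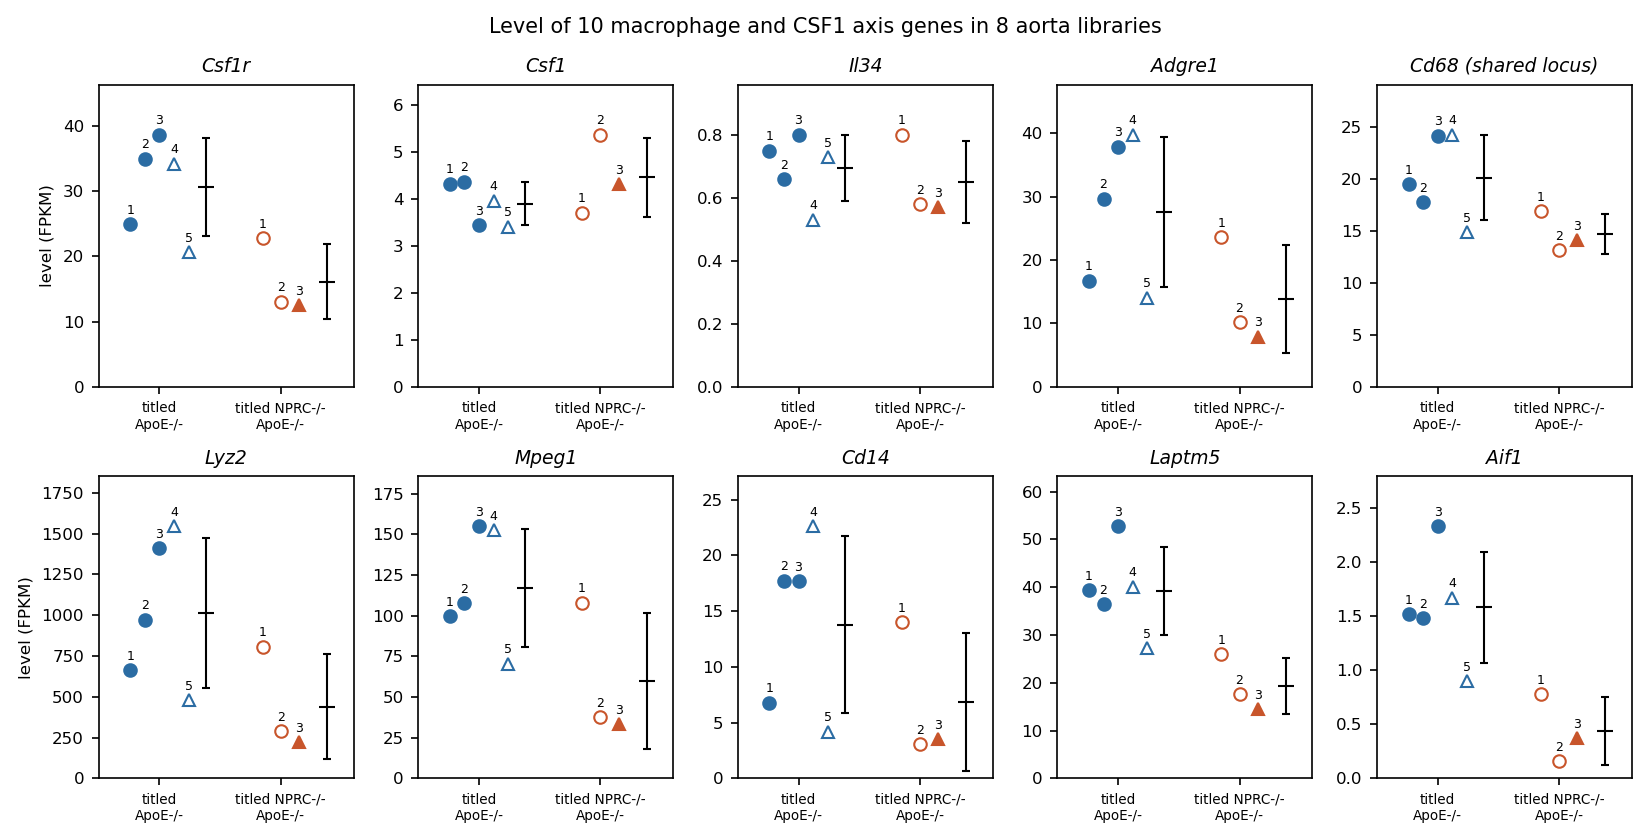
Level in FPKM of each of the 10 genes in 8 libraries, by titled group, with the replicate number above each point and the mean ± SD at the right of each group. Filled symbols are libraries whose title and genotype entry agree, open symbols those where they conflict, circles are entered as ApoE-/- and triangles as NPRC-/-ApoE-/-. The titled groups do not overlap for Laptm5 and Aif1 and overlap for the other 8 genes.

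Csf1r (ENSMUSG00000024621, chr18:61100598-61132149 on the plus strand of GRCm38) was at 24.9, 34.9, 38.6, 34.1 and 20.6 FPKM in libraries ApoE-/- 1 to 5 and at 22.7, 13.0 and 12.5 FPKM in NPRC-/-ApoE-/- 1 to 3. Libraries NPRC-/-ApoE-/- 2 and 3 were lowest, whereas NPRC-/-ApoE-/- 1 lay above ApoE-/- 5, so the titled groups overlapped. By title the level was 0.525-fold (log2 fold change -0.93, SE 0.29, 95% confidence interval -1.59 to -0.27), with an unadjusted p of 0.0115 and an adjusted p of 0.285 in edgeR. The exact permutation test of 5 libraries against 3 gave p = 0.0714 by title, where the smallest p that it allows is 0.0357. By genotype entry the log2 fold change was -0.23 (SE 0.41, interval -1.17 to 0.71).

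Among the ligands, Csf1 (ENSMUSG00000014599, chr3:107741048-107760469, minus strand) was at 4.33, 4.37, 3.45, 3.97 and 3.41 FPKM in the libraries titled ApoE-/- and at 3.71, 5.37 and 4.32 FPKM in those titled NPRC-/-ApoE-/-. The highest level was 1.58-fold the lowest, against 3.08-fold for Csf1r, and the highest Csf1 was in NPRC-/-ApoE-/- 2, a library with nearly the lowest Csf1r. The log2 fold change of Csf1 was 0.22 by title (SE 0.15, interval -0.13 to 0.56, adjusted p = 0.552) and -0.08 by genotype entry (SE 0.18, interval -0.48 to 0.32), so the sign depended on the labels. Il34 (ENSMUSG00000031750, chr8:110741829-110805903, minus strand) stayed below 1 FPKM in every library, from 0.53 in ApoE-/- 4 to 0.80 in ApoE-/- 3 and NPRC-/-ApoE-/- 1, on counts of 103 to 189. It therefore did not enter the main test, and without the filter its log2 fold change was -0.06 (SE 0.24, adjusted p = 0.945), with p = 0.75 in the exact permutation test.

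The ratio of ligand to receptor within a library does not depend on how libraries are scaled. Csf1 stood at 0.174, 0.125, 0.0894, 0.116 and 0.166 of the Csf1r FPKM in ApoE-/- 1 to 5, and at 0.163, 0.412 and 0.345 in NPRC-/-ApoE-/- 1 to 3. Only NPRC-/-ApoE-/- 2 and 3 stood clear of the others. The mean log2 ratio was -2.94 ± 0.39 (SD, n = 5) by title in ApoE-/- and -1.81 ± 0.71 (SD, n = 3) in NPRC-/-ApoE-/-, a difference of 1.13 with p = 0.107 in the two-sided exact permutation test. For Il34 the mean log2 ratio to Csf1r was -5.44 ± 0.49 and -4.59 ± 0.21, a difference of 0.85 with an exact permutation p of 0.0714. By genotype entry these differences were 0.17 (exact p = 0.821) and 0.04 (exact p = 0.964). The 2 ratios share Csf1r, and neither reached a p under 0.05 before adjustment.

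**Figure D2:**
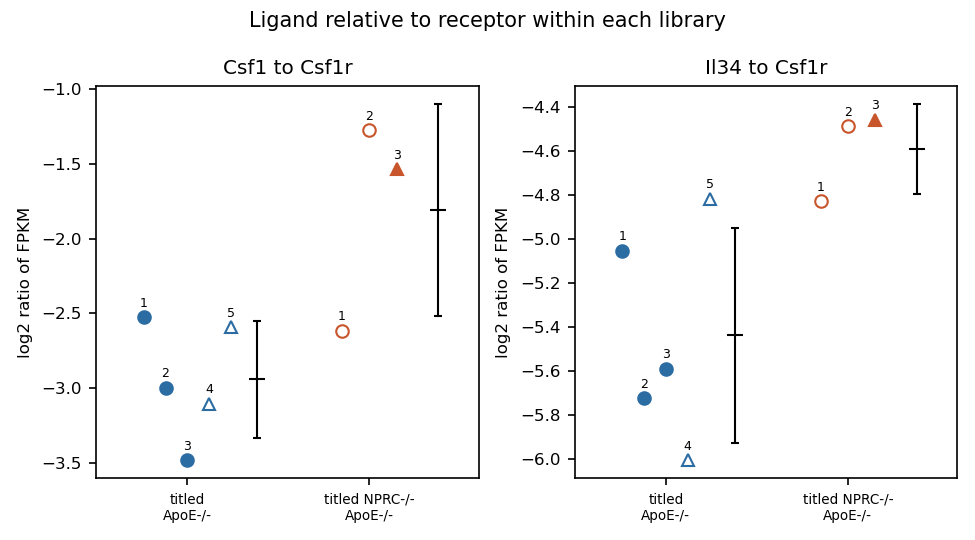
Log2 ratio of Csf1 (left) and Il34 (right) FPKM to Csf1r FPKM in each library by titled group, with symbols as in the plot of levels and bars for mean ± SD. In the left panel NPRC-/-ApoE-/- 2 and 3 lie above all other libraries and NPRC-/-ApoE-/- 1 lies among those titled ApoE-/-.

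Laptm5 and Aif1 were the genes whose titled groups did not overlap. Laptm5 (ENSMUSG00000028581, chr4:130913125-130936141, plus strand), whose protein carries cargo to lysosomes and dampens antigen receptor signalling, was at 39.4, 36.5, 52.7, 40.1 and 27.3 FPKM in ApoE-/- 1 to 5 and at 25.9, 17.6 and 14.5 FPKM in NPRC-/-ApoE-/- 1 to 3. The gap was narrow, between 27.3 FPKM in ApoE-/- 5 and 25.9 FPKM in NPRC-/-ApoE-/- 1. Its log2 fold change was -1.02 (SE 0.27, interval -1.63 to -0.41), with an unadjusted p of 0.00441, an adjusted p of 0.255 and an exact permutation p of 0.0357. Aif1 (ENSMUSG00000024397, locus chr17:35170991-35173278, minus strand) was at 1.52, 1.48, 2.33, 1.67 and 0.90 FPKM and at 0.78, 0.16 and 0.37 FPKM, on 20 to 355 counts. The annotated Aif1 gene extends to 35176068, so the locus covered only part of it. Aif1 had the most negative fold change of the 10 genes by title, at -1.84 on the log2 scale (SE 0.51, interval -2.98 to -0.69), with an unadjusted p of 0.00554 and the same adjusted p of 0.255. Both lost their separation by genotype entry, with log2 fold changes of -0.31 (SE 0.41) for Laptm5 and -0.33 (SE 0.74) for Aif1. A minus-strand locus within Laptm5 had 0.57 to 2.43 FPKM and was not used.

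The remaining macrophage genes spread more widely within a titled group. Lyz2 (ENSMUSG00000069516, chr10:117277331-117282321, minus strand) was at 662, 973, 1411, 1544 and 478 FPKM in ApoE-/- 1 to 5 and at 807, 287 and 220 FPKM in NPRC-/-ApoE-/- 1 to 3. The level in NPRC-/-ApoE-/- 1 lay above those of ApoE-/- 1 and 5. The log2 fold change was -1.24 (SE 0.55, adjusted p = 0.369) by title and -0.12 (SE 0.67) by genotype entry. The neighbouring near-copy Lyz1 was at 1.80 to 11.6 FPKM, and reads that match both genes cannot be told apart. On the opposite strand a pair of loci also carried the name Lyz2. The first was at 21.2, 13.35 and 11.79 FPKM in ApoE-/- 3, ApoE-/- 4 and NPRC-/-ApoE-/- 1. The second was at 6.08 and 8.51 FPKM in ApoE-/- 2 and NPRC-/-ApoE-/- 1. Both were at 0 FPKM in NPRC-/-ApoE-/- 2 and were not used.

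Mpeg1 (ENSMUSG00000046805, chr19:12460779-12465283, plus strand) was at 99.6, 108, 155, 153 and 70.5 FPKM in ApoE-/- 1 to 5 and at 108, 37.6 and 33.4 FPKM in NPRC-/-ApoE-/- 1 to 3. Adgre1 (ENSMUSG00000004730, chr17:57358691-57483527, plus strand) was at 16.8, 29.7, 37.9, 39.8 and 14.0 FPKM and at 23.6, 10.2 and 7.92 FPKM. In both genes NPRC-/-ApoE-/- 1 exceeded ApoE-/- 1 and 5 and the other 2 libraries of its title were lowest. By title the log2 fold changes were -0.99 for Mpeg1 (SE 0.45, adjusted p = 0.374) and -1.01 for Adgre1 (SE 0.48, adjusted p = 0.392), and by genotype entry they were -0.22 and -0.17.

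Cd14 (ENSMUSG00000051439, chr18:36725067-36726798, minus strand) was at 6.79, 17.7, 17.7, 22.6 and 4.17 FPKM in ApoE-/- 1 to 5 and at 14.0, 3.04 and 3.52 FPKM in NPRC-/-ApoE-/- 1 to 3. High and low libraries were present under both titles, and the log2 fold change was -1.04 with an SE of 0.69 (interval -2.60 to 0.53, adjusted p = 0.525). The Cd68 gene (ENSMUSG00000018774, chr11:69664213-69666153, minus strand), which encodes the lysosomal glycoprotein macrosialin, was merged by the assembly into a locus that ended at 69695810 and held 8 gene names, among them Senp3, Eif4a1, Tnfsf12 and Tnfsf13. The level of Cd68 alone therefore could not be read. The locus was at 19.5, 17.8, 24.2, 24.3 and 14.9 FPKM and at 16.9, 13.1 and 14.1 FPKM, with a log2 fold change of -0.45 (SE 0.22, adjusted p = 0.414).

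Counted together, 8 of the 9 tested genes had a negative log2 fold change by title, Csf1 being the exception, while the median of all 20506 loci was -0.01. Cd68 was counted through its merged locus. No member and 0% of all loci had an adjusted p under 0.05 in edgeR, where 2797 loci had an unadjusted p under 0.05 and DESeq2 gave 650 loci with an adjusted p under 0.05, Laptm5 (0.0163) and Aif1 (0.0107) among them. Csf1r, Laptm5 and Aif1, 3 of 9, were lower with an unadjusted p under 0.05, which held for 7.13% of all loci. Laptm5 and Aif1, 2 of 9, also met the study's criterion of a fold below 0.5 with that p, against 2.39% of all loci, and had titled groups without overlap, against 3.69% of all loci. Aif1 reached 1 FPKM only in libraries titled ApoE-/-, so it passed the filter through the group where it was high. Its place among the tested genes therefore depends on the same values as its difference by title. The 3 genes became 5 without ApoE-/- 1, 7 without ApoE-/- 5 and 7 without NPRC-/-ApoE-/- 1. The 2 that met the criterion became 5, 6 and 7. All loci that met it in either direction, 712 by title, numbered 820, 1132 and 1635 in these fits. Without ApoE-/- 3, ApoE-/- 4, NPRC-/-ApoE-/- 2 or NPRC-/-ApoE-/- 3 only 1 gene met the criterion. By genotype entry all 9 log2 fold changes were negative, between -0.33 and -0.01, and 0 of 9 had an unadjusted p under 0.05, against 0.697% of all loci lower with that p. There 269 loci in either direction had such a p and 0% an adjusted p under 0.05. In the 4 libraries with agreeing labels, 3 against 1, the log2 fold changes were -1.32 for Csf1r, -1.49 for Laptm5, -2.15 for Lyz2 and 0.18 for Csf1, with the single library NPRC-/-ApoE-/- 3 assumed to vary like the others.

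**Figure D3:**
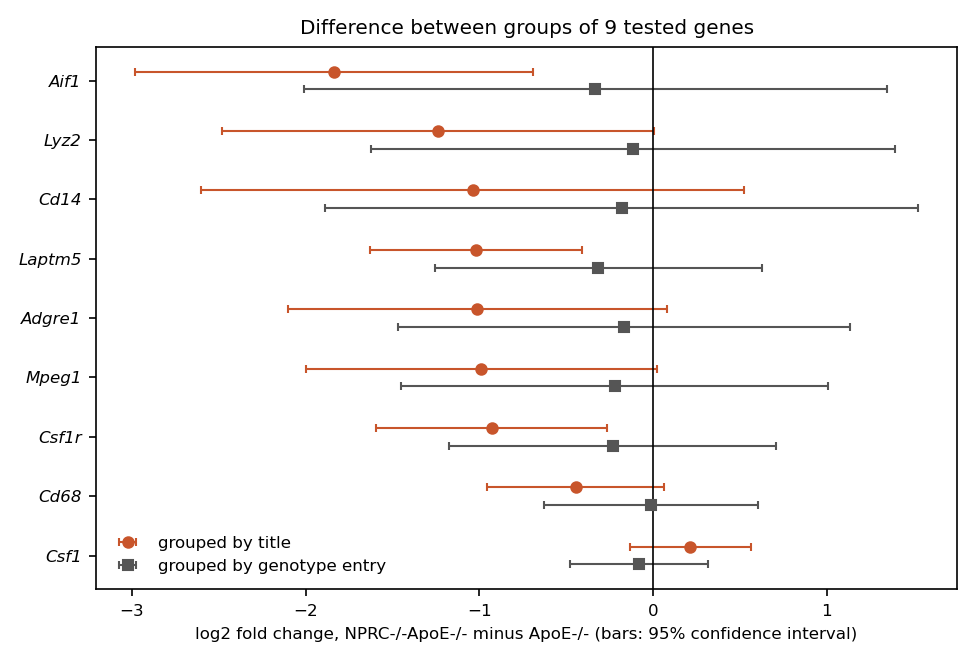
Log2 fold change of NPRC-/-ApoE-/- over ApoE-/- with its 95% confidence interval for the 9 tested genes, grouped by title (circles) and by genotype entry (squares). By title the intervals of Csf1r, Laptm5 and Aif1 lie below 0, and by genotype entry every interval includes 0.

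The 8 receptor and macrophage genes, with Cd68 read only through its merged locus, ranked the libraries alike. In 8 of 8 the highest library was ApoE-/- 3 or 4 and the lowest pair was NPRC-/-ApoE-/- 2 and 3, in 6 of 8 the next lowest was ApoE-/- 5, and in 6 of 8 NPRC-/-ApoE-/- 1 stood above ApoE-/- 5. Over the 8 libraries the 28 pairs among these genes had Pearson correlations of log2 CPM (counts scaled to the size of the library) between 0.79 and 0.99 with a median of 0.92, and of 0.74 to 0.99 with a median of 0.86 once the mean of each titled group was removed. Csf1 correlated with the 8 genes at -0.60 to -0.24 and Il34 at 0.26 to 0.45, and Csf1 with Il34 at -0.65. With the titled group means removed, Csf1 correlated with the 8 genes at -0.41 to 0.05 (median -0.12) and Il34 at 0.21 to 0.57 (median 0.34). The points of each correlation share libraries and their depth. Pairs drawn from all loci were not correlated, so whether this likeness was particular to these genes was not tested. The span from lowest to highest library differed between genes, from 1.85-fold at the Cd68 locus and 3.08-fold for Csf1r to 4.64-fold for Mpeg1, 5.02-fold for Adgre1, 7.03-fold for Lyz2, 7.43-fold for Cd14 and 14.6-fold for Aif1.

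**Figure D4:**
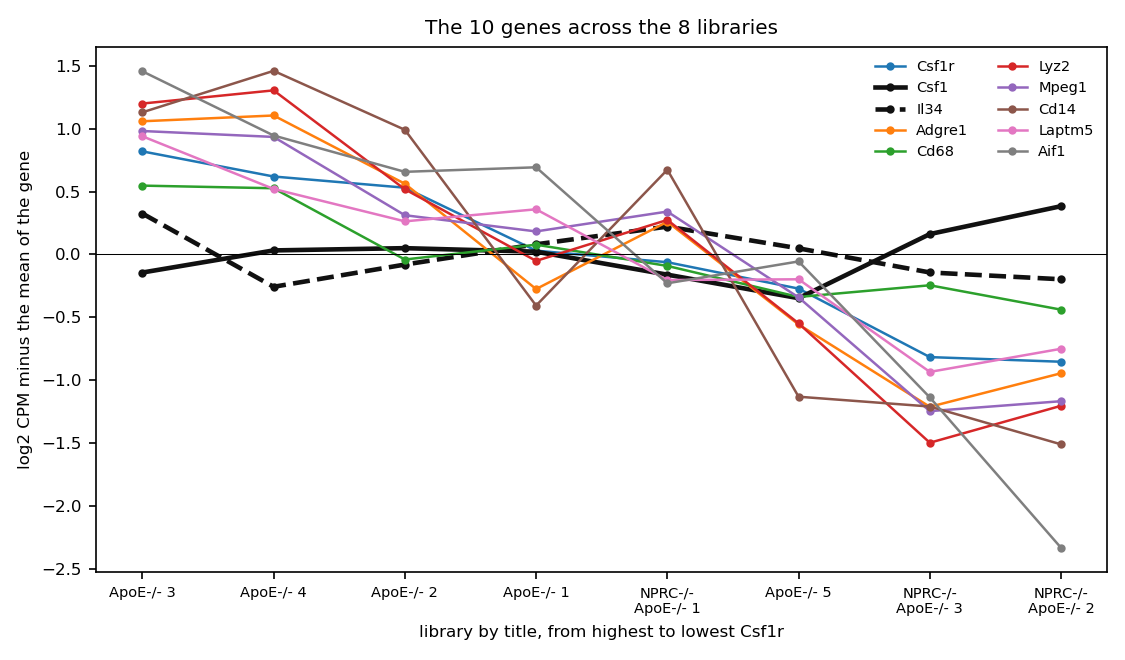
Log2 CPM of each of the 10 genes minus its own mean over the 8 libraries, with libraries ordered by Csf1r from highest to lowest. The 8 receptor and macrophage genes are high at the left and low at the right, with Cd14, Adgre1, Lyz2 and Mpeg1 higher in NPRC-/-ApoE-/- 1 than in ApoE-/- 1, while Csf1 (thick solid line) and Il34 (thick dashed line) stay within 0.5 of their means.

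Set against Csf1r within each library, Laptm5 kept the steadiest proportion, with a log2 ratio of 0.33 ± 0.19 (SD over 8 libraries) that differed by -0.08 between the titled groups. Mpeg1 and Adgre1 varied by SDs of 0.30 and 0.33 around their log2 ratios, with titled differences of -0.18 and -0.09. Lyz2 averaged 28.1 times the Csf1r level, with an SD of 0.45 on the log2 scale and a titled difference of -0.37. Aif1 and Cd14 kept the least fixed proportion among the macrophage genes, with SDs of 0.75 and 0.67 and titled differences of -1.13 and -0.17. The Cd68 locus had an SD of 0.36 and a titled difference of 0.51, so it was higher relative to Csf1r in libraries titled NPRC-/-ApoE-/-.

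Among 19930 named loci that passed the filter, those whose log2 CPM followed Csf1r most closely over the 8 libraries were Parvg (r = 0.997), Il1b (r = 0.995), Lpcat2 (r = 0.995), Galnt12 (r = 0.994) and Fermt3 (r = 0.994). Parvg and Fermt3 encode integrin-associated proteins of blood cells, Il1b the cytokine interleukin 1 beta, Lpcat2 an enzyme that makes platelet-activating factor and Galnt12 an enzyme that starts O-glycans. Il1b spanned 0.24 FPKM in NPRC-/-ApoE-/- 2 to 5.70 FPKM in ApoE-/- 3. Lyz2 was the closest of the other members to Csf1r (r = 0.970), at rank 168. Loci most like Csf1 were one shared by Fermt2 and Gm22637 (r = 0.944), Dnajc17 (r = 0.936) and Tjp1 (r = 0.919), where Fermt2 encodes an integrin activator of adherent cells and Tjp1 a tight junction protein. Il34 was most like Gm28154 (r = 0.937), Ktn1 (r = 0.918) and Gm17228 (r = 0.917).

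Promoter sequences are given for the ligand Csf1, which varied little, beside 4 macrophage genes, of which Cd68 was measured only within its merged locus, from 250 bases before to 50 bases after the RefSeq start site in GRCm38.p6. RefSeq promoters could be matched for these 5 genes and for Aif1. The motifs searched were GAGGAA, the core to which PU.1 and other ETS factors bind, and the TATA box TATAAA, each on both strands, so that capitals mark GAGGAA or TTCCTC and TATAAA or TTTATA. They do not overlap each other. The regions are chr3:107760420-107760719 (minus strand) for Csf1, chr11:69666121-69666420 (minus) for Cd68, chr10:117282223-117282522 (minus) for Lyz2, chr19:12460520-12460819 (plus) for Mpeg1 and chr4:130913066-130913365 (plus) for Laptm5, each written 5′ to 3′ along its gene.
Csf1: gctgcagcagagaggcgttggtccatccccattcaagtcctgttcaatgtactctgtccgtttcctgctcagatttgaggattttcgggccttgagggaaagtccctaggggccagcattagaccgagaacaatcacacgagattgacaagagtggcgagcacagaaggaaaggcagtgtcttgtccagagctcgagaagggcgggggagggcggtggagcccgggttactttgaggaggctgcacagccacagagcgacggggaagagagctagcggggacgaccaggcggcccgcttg
Cd68: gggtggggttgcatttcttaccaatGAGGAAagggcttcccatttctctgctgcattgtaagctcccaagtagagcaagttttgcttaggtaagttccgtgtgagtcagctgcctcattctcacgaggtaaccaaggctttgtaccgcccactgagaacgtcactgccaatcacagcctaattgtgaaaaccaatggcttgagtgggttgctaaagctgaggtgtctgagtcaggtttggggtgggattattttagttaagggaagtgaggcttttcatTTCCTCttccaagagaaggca
Lyz2: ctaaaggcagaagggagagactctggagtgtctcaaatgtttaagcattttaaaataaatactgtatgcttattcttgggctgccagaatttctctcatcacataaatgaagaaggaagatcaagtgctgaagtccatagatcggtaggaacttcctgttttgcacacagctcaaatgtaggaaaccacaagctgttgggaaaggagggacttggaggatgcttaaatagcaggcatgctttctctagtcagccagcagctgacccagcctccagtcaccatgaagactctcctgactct
Mpeg1: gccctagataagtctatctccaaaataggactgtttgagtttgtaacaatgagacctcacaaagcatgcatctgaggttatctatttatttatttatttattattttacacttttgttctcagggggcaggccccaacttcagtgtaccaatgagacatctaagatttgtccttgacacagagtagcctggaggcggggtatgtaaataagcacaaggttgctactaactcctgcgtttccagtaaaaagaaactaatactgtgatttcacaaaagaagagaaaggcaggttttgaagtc
Laptm5: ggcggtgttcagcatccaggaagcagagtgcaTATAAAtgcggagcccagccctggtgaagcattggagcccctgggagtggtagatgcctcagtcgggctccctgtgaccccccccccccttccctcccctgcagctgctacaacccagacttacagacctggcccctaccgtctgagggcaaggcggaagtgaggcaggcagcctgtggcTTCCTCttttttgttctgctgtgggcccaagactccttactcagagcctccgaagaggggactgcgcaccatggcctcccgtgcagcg

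GAGGAA was present on either strand in 3 of the 6 matched promoters and in 28.3% of 32851 promoters in all. Cd68 held it at -225 and 30, Laptm5 at -38 and Aif1 at -7, counted from the start site at the leftmost base. TATAAA was present in Laptm5 at -218, 1 of 6, and in 13.6% of all promoters. The RefSeq start site of Laptm5 lies inside the locus used here, which begins at 130913125. In Laptm5 the GAGGAA match therefore falls inside that locus and the TATAAA match lies before its start. The windows of Csf1, Lyz2 and Mpeg1 held neither string. For Aif1 the deposited locus ended 2774 bases short of the RefSeq start site, although 6 of the 7 annotated transcripts were listed for it, so its promoter is not printed.

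The genes that carry the CSF1R signal inside the cell were mostly lower by title. Of 20 tested genes of this relay, 18 were lower by title, 11 of them with an unadjusted p under 0.05 (against 7.13% of all loci) and 0 with an adjusted p under 0.05 in edgeR, and the median log2 fold change was -0.83. Plcg2, a phospholipase, had a log2 fold change of -0.83 (SE 0.26), Lyn, a SRC family kinase, of -0.98 (SE 0.31), Inpp5d, the phosphatase SHIP1, of -0.98 (SE 0.32) and Syk, a kinase downstream of DAP12, of -0.81 (SE 0.28), each with an unadjusted p between 0.00996 and 0.0171. Src, Cbl, Grb2 and Sos1 had log2 fold changes of 0.11, 0.26, -0.41 and -0.11 with groups that overlapped. Tyrobp, Pik3cg, Pik3r5, Dok1 and Dok2 also had an unadjusted p above 0.05 in edgeR. Their log2 fold changes were -1.14, -0.63, -0.60, -0.23 and -0.53. All of these were chosen for mention after their values were seen. The 11 genes became 14 without ApoE-/- 5 and 16 without NPRC-/-ApoE-/- 1. By genotype entry the median was -0.27 and 0 genes had an unadjusted p under 0.05.

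Of the 12 myeloid transcription factors, 11 were tested, 10 were lower and 6 of these had an unadjusted p under 0.05 (against 7.13% of all loci), with a median of -0.60. Irf8, which directs monocyte and macrophage fate, had 3.22 FPKM in the lowest library titled ApoE-/- and 3.09 FPKM in the highest of the others, with a log2 fold change of -1.45 (SE 0.40, adjusted p = 0.255). Its FPKM did not overlap between the titled groups, whereas its log2 CPM did. Runx1 had a log2 fold change of -1.06 (SE 0.35), Spi1, the gene of PU.1 and a direct activator of Csf1r, of -1.13 (SE 0.40), and a locus that Nr1h3, the gene of the oxysterol receptor LXR alpha, shares with Madd of -0.47 (SE 0.16).

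Among other colony-stimulating factors and their receptors, 10 of 14 were tested, and 5 were lower and 1 higher with an unadjusted p under 0.05 (against 7.13% and 6.51% of all loci), with a median of -0.90. Kitl, the ligand of KIT, had a log2 fold change of -0.87 (SE 0.25), and Csf2rb2 and Csf2rb, beta chains of the receptors for IL-3 and GM-CSF, of -1.02 (SE 0.30) and -1.03 (SE 0.36). Ptprz1, a receptor for IL-34 outside the macrophage lineage, was the higher gene at 0.84 (SE 0.33), with 1.67 to 3.49 FPKM by title in ApoE-/- and 2.86 to 6.37 FPKM in NPRC-/-ApoE-/-. Its adjusted p was 0.328 and its groups overlapped. In the CD14 and TLR4 group, 11 of 12 were lower and 4 of these had an unadjusted p under 0.05 (again against 7.13%), with a median of -0.39. These were Lbp, which hands lipopolysaccharide to CD14 (-1.11, SE 0.32 on the log2 scale), Ly86, the partner of CD180 (-1.39, SE 0.40), the kinase gene Irak4 (-0.48, SE 0.17) and the adaptor gene Myd88 (-0.63, SE 0.25). Tlr4 itself had a log2 fold change of -0.15 (SE 0.24) and was named after its value was seen. By genotype entry 0 genes of these 3 groups had an unadjusted p under 0.05.

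Leukocyte and fibroblast markers were lower by title like the macrophage genes. Smooth muscle markers and, by a smaller median, brown adipocyte markers were higher. Endothelial and white adipocyte markers had medians near 0. Of 15 further macrophage markers, 14 were lower by title, 8 with an unadjusted p under 0.05 (13 without NPRC-/-ApoE-/- 1, and 7.13% of all loci), and their summed FPKM ranged from 455 to 1396 where titled ApoE-/- and from 223 to 671 where titled NPRC-/-ApoE-/-. All 10 pan-leukocyte markers, of which Rac2 also stands in the relay list, were lower, 7 with that p, and summed to 72.4 to 175 against 38.6 to 109 FPKM. The 10 fibroblast markers were all lower, 3 with that p (8 without ApoE-/- 5 and 6 without NPRC-/-ApoE-/- 1), and summed to 833 to 2090 against 466 to 1187 FPKM. By contrast all 10 smooth muscle markers were higher, 9 with that p, against 6.51% of all loci higher with that p, and summed to 1354 to 1808 against 1746 to 2996 FPKM. The 10 endothelial markers summed to 112 to 125 against 103 to 120 FPKM, with a median of -0.10. The part of these other cells in the values of the macrophage genes was not tested.

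Of other leukocytes, 3 of 10 T cell, 2 of 10 B cell, 3 of 10 neutrophil and 3 of 8 dendritic cell markers passed the filter. By title the T cell sum was 10.3 to 16.1 against 4.93 to 8.82 FPKM and the dendritic cell sum 7.74 to 11.1 against 3.92 to 7.06 FPKM, both without overlap. The medians over the tested markers were -0.94 and -1.58. Of the T cell markers, Cd4 was at 1.95 to 2.85 against 0.48 to 1.28 FPKM and Cd28 at 0.68 to 1.06 against 0.29 to 0.43 FPKM. Titled groups without overlap, and lower, held for 3.69% of all loci. The other T cell markers overlapped between the titled groups. Among these, Il7r was at 3.16 to 8.42 against 1.33 to 5.48 FPKM, and made up 5.48 of the 8.82 FPKM in NPRC-/-ApoE-/- 1. The separation of the T cell sum thus rests in part on a gene that itself overlapped. The B cell sum was 3.76 to 28.8 against 1.83 to 5.91 FPKM (median -1.88) and the neutrophil sum 1.92 to 10.0 against 1.78 to 11.3 FPKM (median -0.28). Lower with an unadjusted p under 0.05 were 1 T cell, 1 B cell, 2 dendritic cell and 0 neutrophil markers, against 7.13% of all loci. Cd4, Lck, Cd79b, Cd22, Cd209a and Ccr7 passed the filter through the libraries titled ApoE-/-. The T cell, B cell and dendritic cell medians and counts therefore depend on the same values as the differences by title. Without NPRC-/-ApoE-/- 1 there were 2 T cell and 2 B cell markers, and without ApoE-/- 5 there were 2 B cell markers. Brown adipocyte markers summed to 133 to 617 against 370 to 589 FPKM, in the same order of titles. The lowest sums were in ApoE-/- 3 and 4, the libraries highest in macrophage genes. All 10 brown adipocyte markers were higher by title (median 0.34), 0 with an unadjusted p under 0.05, against 6.51% of all loci. By genotype entry 8 of the 10 were lower. White adipocyte markers summed to 143 to 592 against 245 to 412 FPKM, skeletal and heart muscle markers to 2.10 to 12.4 against 7.09 to 10.6 FPKM, and erythroid markers to 173 to 1802 against 112 to 562 FPKM. Their part in the results was not tested. No cell type list had a gene with an unadjusted p under 0.05 by genotype entry.

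**Figure D5:**
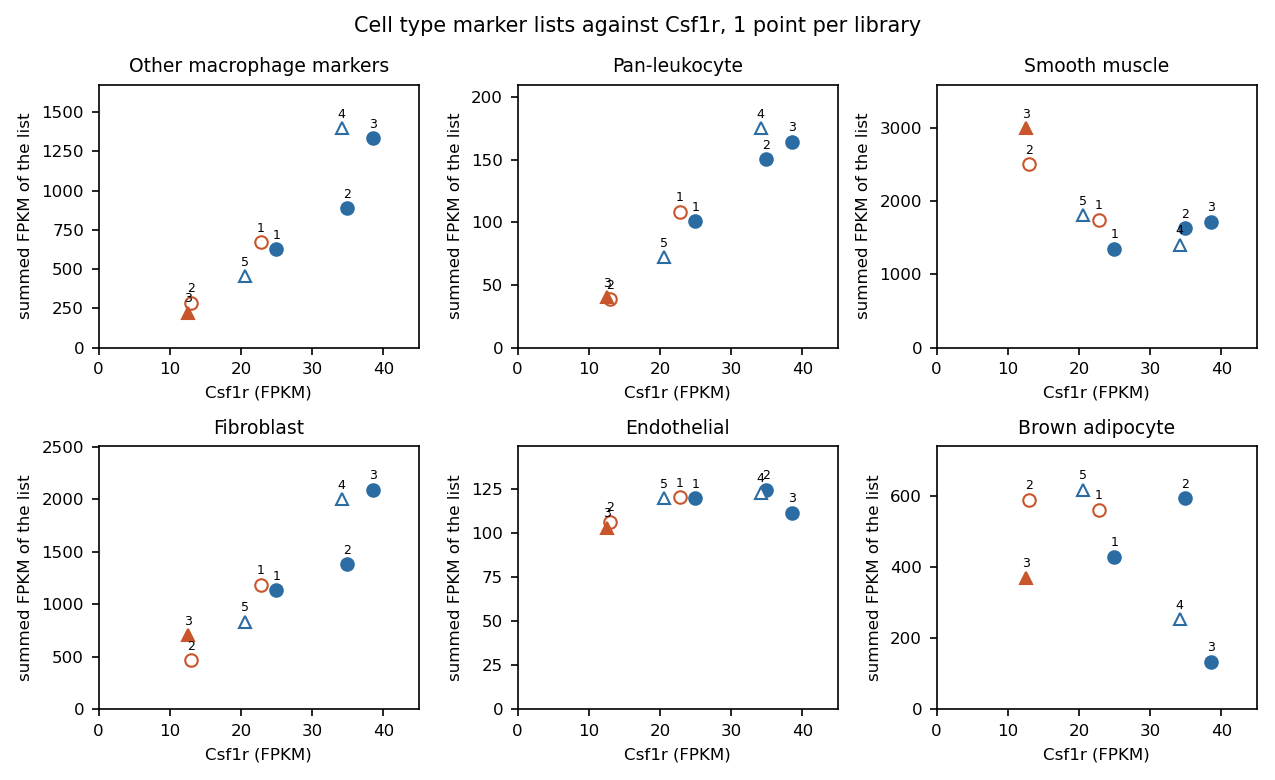
Summed FPKM of 6 cell type marker lists against Csf1r FPKM, with 1 point per library, the replicate number beside it and colours and symbols as in the plot of levels. Macrophage, pan-leukocyte and fibroblast sums are highest in ApoE-/- 3 and 4 and lowest in NPRC-/-ApoE-/- 2 and 3, while smooth muscle sums are highest in NPRC-/-ApoE-/- 2 and 3.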

How the data were processed

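Poly(A) RNA of whole aorta was sequenced as strand-marked paired-end libraries, 5 titled ApoE-/- and 3 titled NPRC-/-ApoE-/-. The study's methods state 5 mice per group, and 8 libraries were analysed here. The authors mapped trimmed reads with HISAT2 and assembled loci with StringTie, and the submitters' processing notes name cutadapt 1.9, FastQC and GRCm38. The authors deposited whole-number counts per assembled locus without normalization, and how these were derived and whether counting used strand is not given in the sources used here. The authors also deposited FPKM values, scaled to transcript length and mapped fragments, in the same table, which had 0 value columns without a library. Loci that merge neighbouring genes, as at Cd68, cannot be split.

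The 20506 loci that reached 1 FPKM or more in 3 or more libraries entered edgeR 4.0.16 in R 4.3.3 (TMM, quasi-likelihood, Benjamini-Hochberg over all loci), by title and by genotype entry. The SE is the log2 fold change divided by the root of F. The biological coefficient of variation was 0.327. Log2 CPM used a prior count of 2. Single genes and ratios were compared by two-sided exact permutation tests, unadjusted. The fits were tested on simulated data. Alternatives were DESeq2 1.42.0, limma 3.58.1 on log2(FPKM + 1) and log2(FPKM + 0.1), RLE scaling, no filter, the replicate block, each library left out and the 4 agreeing libraries. Fits without 1 library, and list counts without ApoE-/- 5 or NPRC-/-ApoE-/- 1 or by genotype entry, were compared, the list counts being added after the data were seen. The share of all loci with an unadjusted p under 0.05 was counted only by title and by genotype entry with all 8 libraries. All 10 members were named, with the up to 4 genes of smallest unadjusted p by title in each pathway list and the 5 loci most like Csf1r and 3 most like each ligand. The members and lists were chosen with earlier results of these data known. No pair of libraries agreed within sampling noise.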

Additional observations from a re-analysis of the deposited data

How the results depend on the processing

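The number of the 9 tested genes with an unadjusted p under 0.05 was 3 by title and 0 by genotype entry. It was 6 in DESeq2, 7 in limma on log2(FPKM + 1), 7 in limma on log2(FPKM + 0.1) and 5 without the filter on low values. With 1 library left out it was 3 to 7. All loci with that p numbered 2797 by title and 269 by genotype entry, and were not counted in the other settings. Whether these changes were particular to the 9 genes was therefore not tested. Loci that met the study's criterion, 712 by title, numbered 95 by genotype entry, 1815 in the 4 agreeing libraries, 175 in limma on log2(FPKM + 1) and 2287 without the filter. With 1 library left out they numbered 403 to 1635, with 1132 without ApoE-/- 5, 1635 without NPRC-/-ApoE-/- 1, 404 without NPRC-/-ApoE-/- 2 and 403 without NPRC-/-ApoE-/- 3. Loci with an adjusted p under 0.05 in edgeR, 0 by title, numbered 0 to 45 with 1 library left out, the 45 without NPRC-/-ApoE-/- 1, and none of the 10 genes was among them. The sign of Csf1 turned by genotype entry (-0.079), and that of Il34 turned without ApoE-/- 3 (0.025), NPRC-/-ApoE-/- 2 (0.042) and NPRC-/-ApoE-/- 3 (0.016). With 1 library left out, Il34 lay between -0.207 and 0.042. The other 8 genes stayed negative in all 17 alternatives, with log2 fold changes of -1.32 to -0.23 for Csf1r. Adjusted p-values over these alternatives were 0.0573 to 1 for Csf1r, 0.0163 to 1 for Laptm5 and 0.0107 to 1 for Aif1, in both of the latter under 0.05 only in DESeq2. The ligand ratios were computed in fewer settings: genotype entry, the 4 agreeing libraries, CPM in place of FPKM, and each library left out. Both kept their direction in these, with differences of only 0.169 (Csf1) and 0.043 (Il34) by genotype entry. The cause of these changes was not tested.

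Replicate numbers are shared between the titled groups. Same-numbered libraries deviated from their group means with a mean correlation of -0.14. Of the NPRC-/-ApoE-/- libraries, 0 of 3 correlated best with its own number. So few pairs cannot decide whether the numbers mark a pairing, and the main tests treated the libraries as unpaired. The fit of libraries 1 to 3 with the replicate block gave 3 genes and 800 loci, against 3 genes and 917 loci without it. Il34 and Aif1 rested on few counts, 103 to 189 and 20 to 355 per library.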
